A study of Mus musculus with 8 samples.

Results

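The genes described here encode the enzymes that build and edit heparan sulfate and chondroitin sulfate, the hyaluronan synthases, and the proteoglycan core proteins that carry the sulfated chains. Of 50 listed genes, 49 were found by name among the 20926 genes of the table (Ndst4 was not analysed here), and 47 passed the filter on low values. RNA was sequenced from the molars of 3-day-old mice after removal of the epithelium, in 4 libraries from Ezh2fl/fl mice (control) and 4 from Osr2KI-Cre;Ezh2fl/fl mice (mutant). The labels give the strain as C57BL/6, whereas the methods speak of a mixed background. Both groups carry the floxed Ezh2 alleles, and only the mutants carry the Cre, which is driven from the Osr2 locus and acts in mesenchyme of the tooth and in the bone around it, while the epithelium keeps the gene. The labels do not give the sex of the animals or the number of animals behind a library, so p-values measure only the spread between these libraries.

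The list was chosen by gene function, but with results of this same comparison known. Extl1 in particular was selected on its higher value in the mutant libraries, so its values are a description and carry no test. Counts over the list are likewise given beside the same counts over all genes, and nothing is read from the difference.

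Heparan sulfate and chondroitin sulfate are long sugar chains attached to core proteins through a shared linker. The exostosin family extends the heparan sulfate backbone: Ext1 and Ext2 work together as the polymerase, Extl3 adds the first sugar that commits a linker to heparan sulfate, and Extl1 and Extl2 are relatives with transferase activity of their own. Sulfotransferases and an epimerase then modify the chain, and the finished pattern sets which growth factors of the FGF, BMP, Wnt and Hedgehog families it binds, signals that are used throughout tooth development. Ezh2 is the enzyme that places the repressive mark H3K27me3, and many of the genes it silences have promoters rich in CG pairs.

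Because Ezh2 acts at promoters, the windows around the start sites of Extl1 and of 2 relatives are shown, from RefSeq on GRCm38.p6, each with 250 bases before and 50 after the start, with every CG in capitals. They are Extl1 at chr4:134372498-134372797 on the minus strand, Ext2 at chr2:93822519-93822818 on the minus strand, and Extl2 at chr3:116007199-116007498 on the plus strand.
Extl1: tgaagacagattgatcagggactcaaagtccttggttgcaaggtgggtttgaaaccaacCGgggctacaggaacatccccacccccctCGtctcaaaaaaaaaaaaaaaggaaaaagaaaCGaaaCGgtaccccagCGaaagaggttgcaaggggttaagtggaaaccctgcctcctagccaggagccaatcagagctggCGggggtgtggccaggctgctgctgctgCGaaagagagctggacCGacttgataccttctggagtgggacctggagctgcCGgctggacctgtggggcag
Ext2: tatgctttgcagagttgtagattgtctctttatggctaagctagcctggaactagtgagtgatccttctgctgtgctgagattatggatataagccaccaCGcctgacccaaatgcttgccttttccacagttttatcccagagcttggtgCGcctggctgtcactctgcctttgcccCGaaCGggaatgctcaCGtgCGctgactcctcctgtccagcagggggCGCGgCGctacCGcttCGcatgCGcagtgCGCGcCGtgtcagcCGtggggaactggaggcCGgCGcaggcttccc
Extl2: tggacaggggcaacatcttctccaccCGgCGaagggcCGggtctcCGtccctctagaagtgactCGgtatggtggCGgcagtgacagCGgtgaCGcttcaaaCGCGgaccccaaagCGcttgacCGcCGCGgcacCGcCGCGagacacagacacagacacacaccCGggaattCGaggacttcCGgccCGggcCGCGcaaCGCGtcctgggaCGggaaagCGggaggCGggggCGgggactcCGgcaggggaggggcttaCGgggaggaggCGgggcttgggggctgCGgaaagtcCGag
The Extl1 window held 9 CG, the Ext2 window 18 and the Extl2 window 34. RefSeq gives Extl2 a second window, at chr3:116008047-116008346 on the plus strand and not printed here, which held 6 CG, a number that 56.4% of all windows reached. Over all 32851 windows of that length, 94.6% held at least 1 CG, 45.8% held as many as the Extl1 window or more, 29.7% as many as the Ext2 window or more, and 7.73% as many as the Extl2 window or more. The 45 windows of the 38 members with an entry had a median of 22 CG, against 7 over all windows, and 6 of them had fewer than the Extl1 window. This RefSeq start lies 11303 bases inside the 5′ end of the Extl1 gene as GENCODE draws it. The counts describe the letters only, since no measurement of H3K27me3 was analysed here.

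Values are the deposited normalised read counts, in which every library has the same 75th percentile over genes. One estimated read was worth 0.0129 to 0.0190 units, and the libraries held 48.3 M to 68.8 M estimated reads. Ezh2 itself read 55.0, 38.3, 39.6 and 39.0 in the control libraries and 35.2, 30.1, 23.2 and 36.0 in the mutant libraries, and these values cover the whole gene and not the floxed exons alone. The 8 markers of dental mesenchyme summed to 425 to 524 in controls and 482 to 532 in mutants. Their log2 fold changes ran from −0.10 (Barx1, 173 to 213 in controls and 166 to 184 in mutants) to 0.41 (Runx2). The median was 0.25 over 7 tested genes. Epithelial markers were present in all libraries too (6 genes, summed value 1801 to 3919 in controls and 1700 to 2369 in mutants). Enamel transcripts varied between libraries within each group: Amelx, the main enamel matrix gene, read 349, 1377, 9733 and 16250 in controls and 807, 376, 7818 and 316 in mutants. Of 10 marker lists, only cartilage (Col2a1, Acan and Col9a1, 3 of 5 tested genes higher) and bone (Ibsp, 1 of 4, also higher) had genes that passed the test, beside 1.56% of all genes higher. The epithelial, ameloblast, odontoblast, mesenchymal, endothelial, muscle, macrophage and osteoclast, and Schwann cell lists had none by limma after adjustment. In the order named, their median log2 fold changes were −0.41, −1.48, −0.98, 0.25, −0.24, −0.58, 0.03 and 0.17. The summed endothelial values did not overlap, at 290 to 323 in controls and 249 to 275 in mutants. In bulk RNA, a change in the number of cells of a type and a change in RNA per cell cannot be told apart.

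The main pattern was a difference of 1 exostosin against a nearly level family. Extl1 was 9.60 times higher in the mutant mean than in the control mean, while the other 4 exostosins kept almost the same summed level. Extl1 (chromosome 4, 134356372 to 134383850, minus strand, mm10) read 1.60, 1.73, 1.08 and 1.90 in the control libraries and 6.77, 19.4, 18.9 and 15.5 in the mutant libraries. The 2 groups did not overlap, and the first mutant library, the lowest of its group, was still above every control. The group means were 1.58 ± 0.351 (SD, n = 4) and 15.1 ± 5.84 (SD, n = 4), from 62 to 128 estimated reads per control library and 356 to 1332 per mutant library. The log2 ratio of the means was 3.26, and it lay between 3.12 and 3.51 when any 1 library was left out.

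Ext1, the polymerase subunit, read 132, 138, 120 and 140 in the control libraries and 116, 124, 134 and 120 in the mutant libraries. Its groups overlapped, and the log2 fold change was −0.10 (SE 0.07), with a 95% interval from −0.27 to 0.07. Ext2, its partner in the polymerase, read 130, 139, 132 and 136 in controls and 133, 146, 133 and 140 in mutants. Its groups overlapped as well, with a log2 fold change of 0.04 (SE 0.06) and an interval from −0.10 to 0.17. Alx4 and Gm13818 lie on the opposite strand within Ext2, and the strand setting of the counting is not given in the sources used here. Extl3, which starts the chain, read 88.0, 91.4, 91.9 and 87.0 in controls and 77.5, 95.1, 80.2 and 87.3 in mutants, with a log2 fold change of −0.08 (SE 0.07) and an interval from −0.25 to 0.09. None of these 3 passed the test (limma adjusted p 0.685, 0.891 and 0.778 in the order named), and their intervals leave room for changes of at most 0.27 on the log2 scale.

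Extl2 was the other family member whose groups did not overlap. It read 23.1, 24.4, 22.8 and 23.9 in the control libraries and 25.6, 28.2, 25.6 and 26.7 in the mutant libraries, so every mutant value was above every control value by a small margin. The log2 fold change was 0.16 (SE 0.07), with an interval from 0.01 to 0.32 and a limma adjusted p of 0.334, and the two-sided exact permutation p was 0.0286, the smallest that 4 against 4 libraries can give.

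Levels between genes were compared per kilobase of exon. In controls Ext2 stood at 18.3, Ext1 at 16.4, Extl3 at 14.8, Extl2 at 6.83 and Extl1 at 0.364 units per kilobase. The ranges of Ext1 (14.8 to 17.3) and Extl3 (14.3 to 15.2) overlapped across libraries, Ext2 (17.8 to 18.9) lay above both, and the steps down to Extl2 and then to Extl1 were many times the spread. In mutants Extl1 reached 3.49 units per kilobase and remained the lowest of the family, since Extl2 stood at 7.69. The other 4 genes summed to 56.3 ± 1.63 (SD, n = 4) in controls and 55.8 ± 2.59 (SD, n = 4) in mutants. Extl1 thereby made up 0.663%, 0.682%, 0.456% and 0.760% of the family's summed level in the control libraries and 2.88%, 7.05%, 7.29% and 6.02% in the mutant libraries. The mean share was 0.640% ± 0.130 in controls and 5.81% ± 2.03 in mutants (SD, n = 4 each), and leaving out any 1 mutant library gave 5.32% to 6.78%. With the length of the longest transcript in place of all exons, the mutant share was 4.54%.

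**Figure D1:**
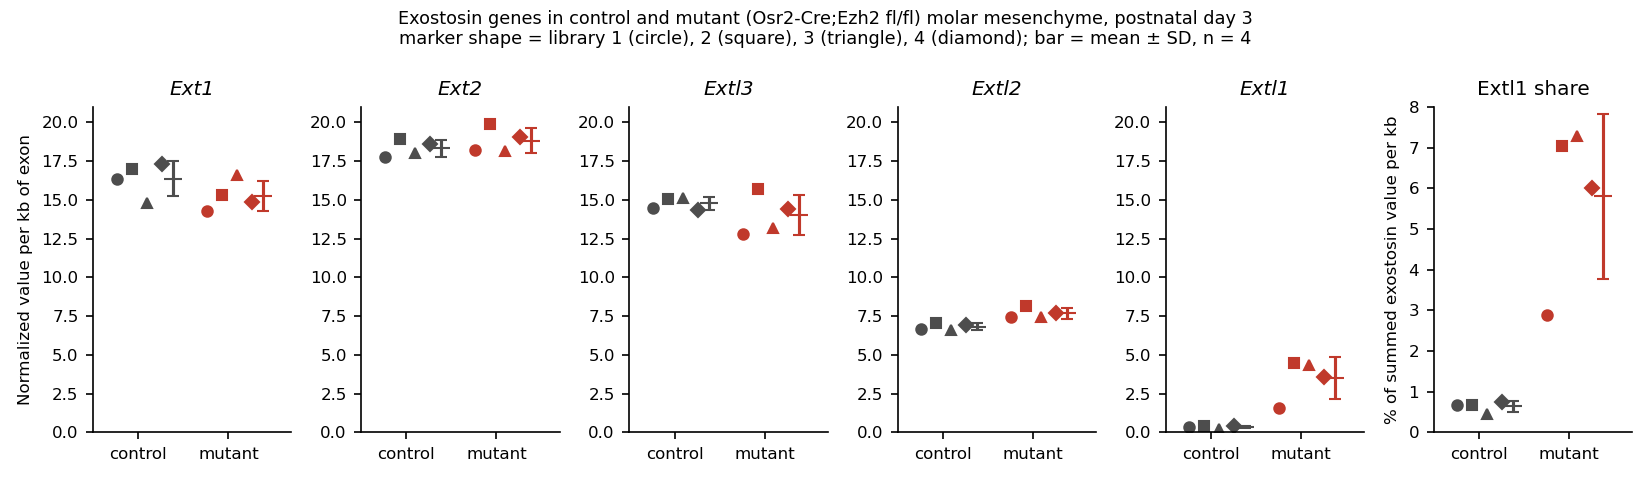
Normalised read count per kilobase of exon of the 5 exostosin genes (first 5 panels) and the share of Extl1 in the family total in percent (last panel), with 1 point per library, marker shapes for the library number, and a bar for the mean ± SD of 4 libraries. The mutant points of Extl1 lie above all its control points, at a mean of 3.49 against 0.364, and the share goes from 0.640% to 5.81%.

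Of the cartilage markers, Col2a1, Acan and Col9a1 rose in mutants, whereas Col9a2 and Sox9 did not pass. The summed value of the 5 cartilage genes measured was 266 to 418 in controls and 491 to 878 in mutants, with Col9a2 the largest part of it, lowest among mutants in the first library and highest in the second. Extl1 was lowest and highest in the same libraries, an order that 12.6% of all genes had. None of the 5 was at 0, Matn1 was not analysed here, and their part in the Extl1 difference was not tested.

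Genes around Extl1 gave no call at levels that could be tested. Within 100 kb of the gene, Pdik1l, Pafah2 and Stmn1 were tested and none passed, with log2 fold changes from −0.12 to −0.03. The neighbours Slc30a2, a zinc transporter, and Trim63, a muscle ubiquitin ligase, were under the filter on low values and were singled out after their values were seen. Slc30a2 read 0.0174, 0.174, 0.0860 and 0.260 in controls and 0.436, 0.576, 1.13 and 0.439 in mutants. Trim63 read 0.122, 0.188, 0.0344 and 0.0918 in controls and 0.417, 0.288, 1.00 and 0.206 in mutants. The groups did not overlap for either gene, but these values rest on 0 to 16 estimated reads per control library and 15 to 79 per mutant library.

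Across all 47 tested members, the values were close between the groups. The median log2 fold change was −0.00 for the members and 0.01 for all 14854 genes tested, and 43 members (91.5%, against 95.1% of all genes) lay within 0.5 of 0 on the log2 scale. Fold changes are on the scale of log2(value + 1), which understates the change of low genes. Extl1 is left out of the rest of the counts given here, of calls and of groups without overlap, since it was chosen on these values. With Benjamini-Hochberg adjustment, limma called 1 of the 46 other members higher in mutants, Hs6st2, and 0 lower, beside 2.07% of all genes called in either direction (1.56% higher and 0.512% lower). At an unadjusted p under 0.05 there were 6 members higher (8.27% of all genes) and 3 lower (4.87% of all genes): Extl2, Hs6st2, Hs3st3a1, Sulf1, Gpc3 and Gpc6 were higher, and Glce, Hs3st3b1 and Has3 lower. With array weights, limma called 11 members higher (14.6% of all genes) and 7 lower (12.6% of all genes). In 5 members every mutant library was above every control library (5.76% of all genes), and in 0 was every mutant library below (2.77% of all genes).

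**Figure D2:**
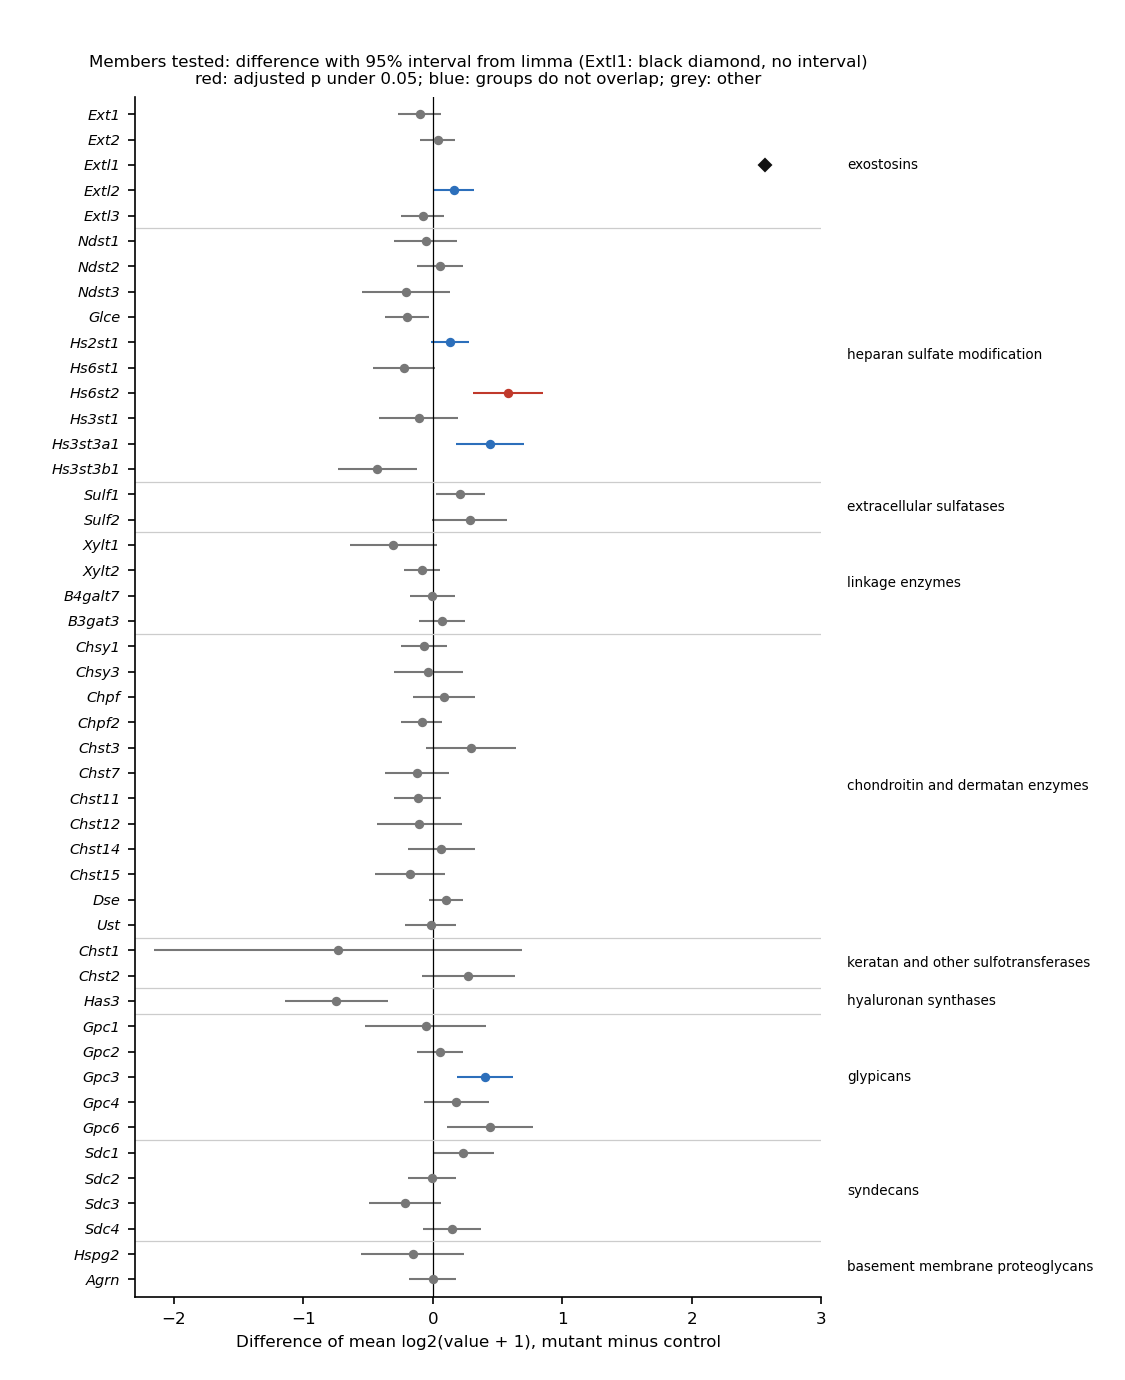
Difference of mean log2(value + 1), mutant minus control, for the 47 tested members by role, with bars for the 95% interval from limma and none for Extl1. Red marks an adjusted p under 0.05 and blue marks groups that do not overlap; most intervals cross 0, Hs6st2 lies at 0.58, and Has3 and Chst1 lie farthest to the left at −0.74, Chst1 with the widest interval.

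Among the enzymes that modify heparan sulfate, 1 of 10 tested genes passed (2.07% of all genes). Hs6st2, a sulfotransferase that adds sulfate at the 6-O position of glucosamine, read 22.8, 20.3, 17.6 and 20.3 in the control libraries and 25.1, 34.7, 29.4 and 34.8 in the mutant libraries. The groups did not overlap, and the first mutant library was the lowest of its group here too. The control mean was 20.3 ± 2.13 and the mutant mean 31.0 ± 4.69 (SD, n = 4 each). On the log2 scale this was a change of 0.58 (SE 0.12), at a limma adjusted p of 0.0433. The call was lost in 12 of 19 other settings, among them leaving out control 2, control 3, control 4, mutant 2, mutant 3 or mutant 4 (adjusted p 0.0816 to 0.160). Hs6st1, which adds the same sulfate, stood at a mean of 93.3 in controls and 80.4 in mutants and did not pass.

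The 3-O sulfotransferases Hs3st3a1 and Hs3st3b1, which add a rare sulfate on glucosamine that particular proteins bind, lie within 637 kb of each other on chromosome 11 and differed in the direction of their values. Hs3st3a1 read 3.34, 2.86, 2.95 and 2.51 in controls and 3.60, 4.80, 3.93 and 4.98 in mutants, without overlap, with a log2 fold change of 0.44 (SE 0.12). At these low values it depended on the number added before the log, and was 0.55 with 0.1 and 0.24 with 5 in place of 1. Hs3st3b1 read 31.3, 37.1, 47.7 and 45.4 in controls and 31.0, 25.2, 31.9 and 29.5 in mutants, with overlap at control 1 and a log2 fold change of −0.43 (SE 0.14), which was −0.27 with enamel transcripts (Enam, Ambn and Amelx averaged on the log2 scale) as a term of the fit and −0.25 without the 3 libraries highest in Amelx. Neither passed (limma adjusted p 0.105 and 0.178), and Cox10 and 2810001G20Rik between them were not called. The groups of 2810001G20Rik did not overlap, at 12.6 to 13.9 in controls and 15.2 to 15.8 in mutants. F930015N05Rik lies on the strand opposite Hs3st3a1 and overlaps it. Hs3st3a1 and Hs3st3b1 are close paralogs, so reads from shared sequence may be split between them.

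The remaining modifying enzymes gave no call. Ndst1, the main enzyme of the first modification step, stood at 154 and 150 in the control and mutant means, Ndst2 at 27.3 and 28.4, and Ndst3 at 1.28 and 1.01. Glce, the epimerase, stood at 102 and 88.6, and Hs3st1 at 3.10 and 2.84. Hs2st1, the 2-O sulfotransferase, read 95.7, 112, 106 and 110 in controls and 113, 116, 120 and 117 in mutants, so its groups did not overlap although by less than 1 unit. The extracellular sulfatases, which strip 6-O sulfate from finished chains, were measured well and did not pass: Sulf1 stood at 335 in controls and 388 in mutants, and Sulf2 at 113 and 140. Sulf2, singled out after its values were seen, spread far more in mutants, at 103, 169, 144 and 145 against 111 to 117 in controls.

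The linker enzymes and the chondroitin and dermatan enzymes also gave no call by limma after adjustment, in 16 genes tested (2.07% of all genes were called). Of the linker enzymes, Xylt1, which attaches the first xylose, stood at 27.4 in controls and 21.8 in mutants, Xylt2 at 41.9 and 39.4, B4galt7 at 20.2 and 20.1, and B3gat3 at 35.1 and 37.0. The chondroitin polymerase genes were at near equal means, with Chsy1 at 65.9 and 62.8, Chsy3 at 3.97 and 3.83, Chpf at 64.8 and 69.6, and Chpf2 at 72.6 and 68.2. The 12 chondroitin and dermatan genes had log2 fold changes from −0.18 to 0.29 with a median of −0.05. Chst11, the main 4-O sulfotransferase of chondroitin, was the highest of its sulfotransferases, at a mean of 133 in controls and 122 in mutants, and Chst7 was the lowest, at 1.41 and 1.23. Dse, the dermatan epimerase, stood at 57.3 and 61.4, Ust at 45.9 and 45.2, Chst3 at 7.54 and 9.30, Chst12 at 16.3 and 15.3, Chst14 at 31.1 and 32.9, and Chst15 at 43.2 and 38.2.

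Chst1, a keratan sulfate sulfotransferase, was the member that differed most between libraries of the same group. It read 9.75, 18.5, 45.4 and 79.4 in controls and 14.9, 12.1, 43.9 and 9.86 in mutants. The libraries with the most Chst1 were control 4, control 3 and mutant 3, which were also the 3 with the most Amelx. The log2 fold change was −0.74 (SE 0.63, limma adjusted p 0.742), and it became 0.21 with the same enamel term in the fit. It was −0.14 without the 3 libraries highest in Amelx, −0.26 without control 4, −1.23 without control 1 and −1.18 without mutant 3. The 7 ameloblast markers summed to 811 to 28715 in controls and 738 to 11511 in mutants, with 0 of 6 tested called. Chst15 and Gpc1 had the same 3 libraries highest (4.98% of all genes), and Chpf, Chst12 and Chst14 had them lowest (3.70% of all genes). Fgfr2 and Gm44891 overlap Chst15 on the same strand, so reads there may be shared. Chst2, the other keratan sulfotransferase, did not follow this order and stood at 26.1 in controls and 32.2 in mutants.

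**Figure D3:**
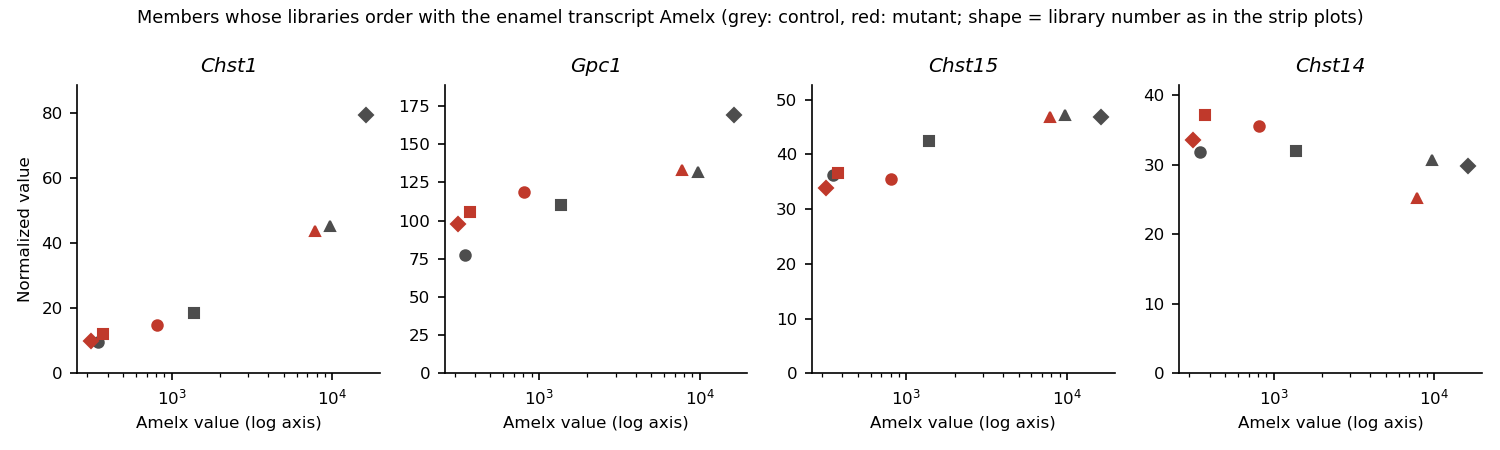
Normalised read count of Chst1, Gpc1, Chst15 and Chst14 (linear axes) against that of Amelx (log axis), with 1 point per library, grey for control and red for mutant. Control 3, control 4 and mutant 3, the libraries with the highest Amelx, are the 3 highest for Chst1, Gpc1 and Chst15 and the 3 lowest for Chst14.

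Of the hyaluronan synthases, only Has3 was high enough to test. Has3, which makes the shorter hyaluronan chains, read 34.3, 53.7, 54.4 and 49.7 in controls and 35.7, 22.1, 24.8 and 30.5 in mutants. Control 1 and mutant 1 overlapped, and the other libraries were separated. The log2 fold change was −0.74 (SE 0.18) with a limma adjusted p of 0.0765, which was 0.0260 without control 1, 0.0461 without mutant 1 and 0.146 to 0.251 without any 1 of the other 6 libraries. The 6 epithelial markers summed to 1801 to 3919 in controls and 1700 to 2369 in mutants, with 0 called and Epcam at 95.6 to 119 and 66.1 to 95.9, and their part in the Has3 values was not tested. Has1, with 5 to 19 estimated reads per library, and Has2, with 16 to 80, were under the filter: Has1 stood at means of 0.175 and 0.216, and Has2 at 0.769 and 0.465, in control and mutant. Chtf8 lies on the strand opposite Has3.

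The proteoglycan core proteins held the highest levels of the list. Per kilobase of exon, Gpc3 led in controls at 125 units, followed by Sdc3 at 84.4, Sdc1 at 74.2, Agrn at 54.6 and Hspg2 at 43.0, and Extl1 ranked 46 of 49, above Has2, Ndst3 and Has1. Sdc3 and Sdc1 differed by less than the sum of their SDs (8.59 and 8.85), whereas Gpc3 lay above both by more. The order rests on the length of all exons, and genes whose longest transcript is much shorter would rank higher by that length. Sulf1 is such a gene, with 11294 bases of exon and 5598 in its longest transcript.

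**Figure D4:**
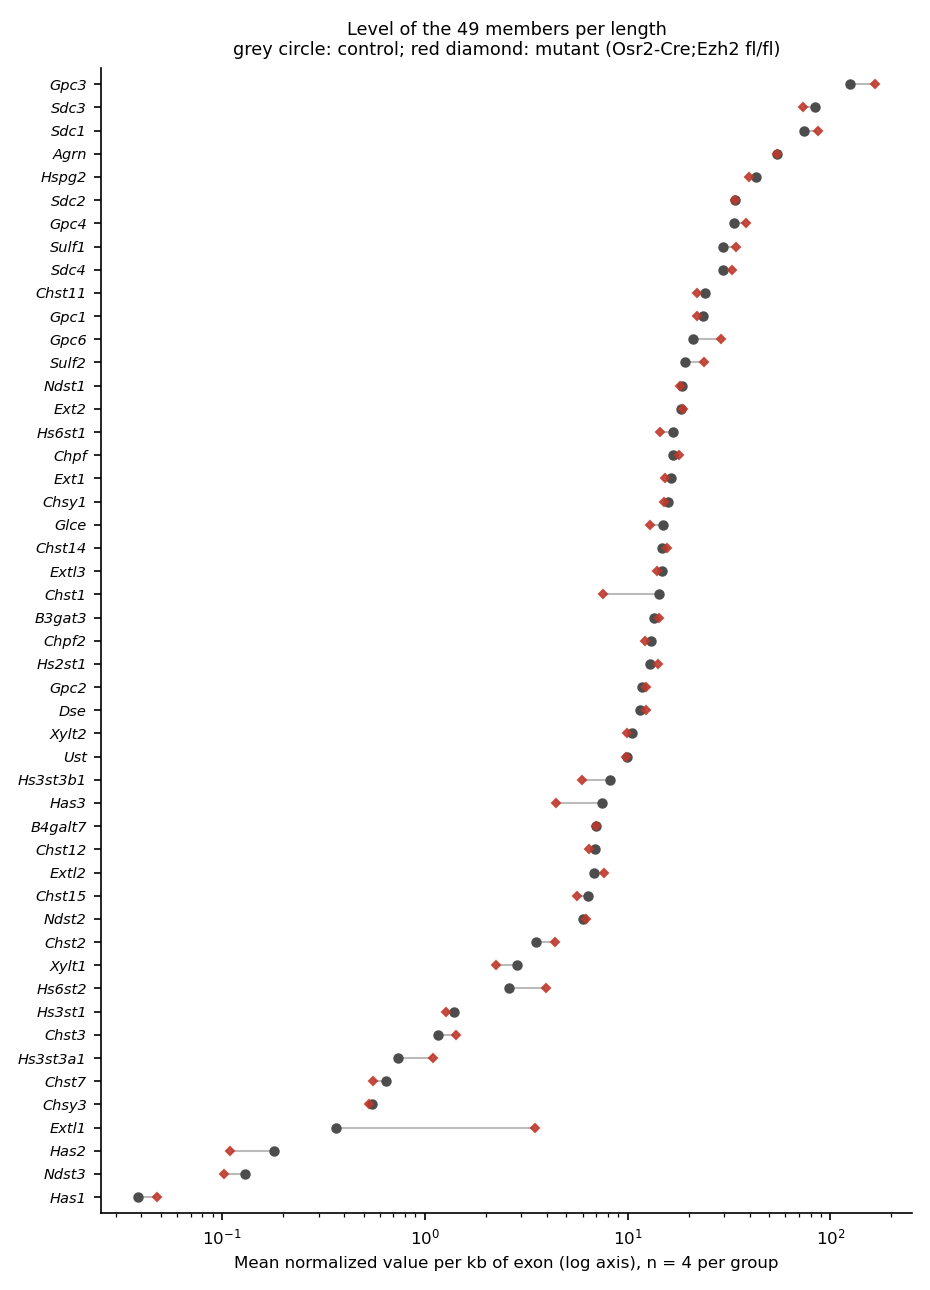
Mean normalised read count per kilobase of exon (log axis, n = 4 per group) of the 49 members, ordered by the control mean, with grey circles for control and red diamonds for mutant. Gpc3 is highest at 125 in controls, and Extl1 moves from 0.364 to 3.49, the widest gap between a circle and its diamond.

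Glypicans are attached to the membrane by a lipid anchor and carry heparan sulfate. Gpc3 read 340, 332, 342 and 333 in the control libraries and 444, 512, 371 and 462 in the mutant libraries. The controls were within a narrow range and all mutants lay above it, with a log2 fold change of 0.40 (SE 0.10) and a limma adjusted p of 0.0758, which was 0.0232 without mutant 3 and 0.105 to 0.217 without any 1 of the other 7 libraries. Gpc6 read 163, 138, 110 and 131 in controls and 147, 229, 184 and 179 in mutants, with overlap, a log2 fold change of 0.44 (SE 0.15) and a limma adjusted p of 0.215, and the change was 0.28 without the 3 libraries highest in Amelx. Gpc1 stood at a mean of 122 in controls and 114 in mutants, Gpc2 at 50.4 and 52.6, and Gpc4 at 88.6 and 102.

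**Figure D5:**
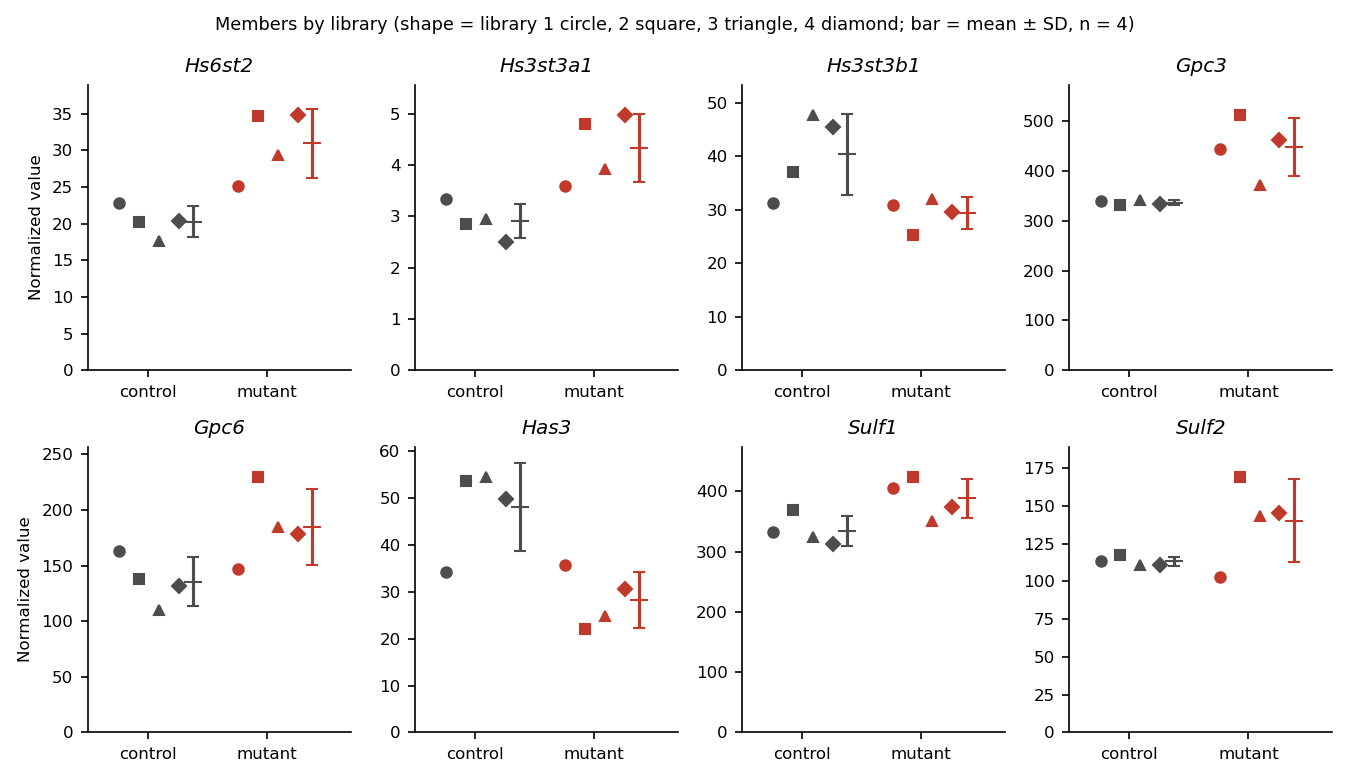
Normalised read count of Hs6st2, Hs3st3a1, Hs3st3b1, Gpc3, Gpc6, Has3, Sulf1 and Sulf2 in the 8 libraries, with marker shapes for the library number and bars for the mean ± SD of 4 libraries. The groups are separate for Hs6st2, Hs3st3a1 and Gpc3 and overlap for the other genes, and the 4 Gpc3 control points lie between 332 and 342.

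Hs6st2, Gpc4 and Gpc3 are the only tested genes in a 1227 kb stretch of the X chromosome (51387212 to 52613951, mm10). The stretch was bounded by Hs6st2 and Gpc3 after their values were seen, so their shared direction follows from that choice. Gpc4, between them, also had the higher mean in mutants, but its groups overlapped. Its log2 fold change was 0.18 (SE 0.11), with a limma adjusted p of 0.586. A rise of any size was common, at 54.1% of the 14854 genes, so nothing is read from the position of these 3. The libraries differed in Xist, the RNA of the silenced X chromosome, which read 518, 0.373, 767 and 669 in controls and 0.414, 1955, 2648 and 401 in mutants. Ddx3y, a gene of the Y chromosome, read 46.4, 82.6, 43.5 and 31.2 in controls and 72.98, 0.0455, 0.0424 and 56.9 in mutants, so it was present in all controls and near 0 in mutant 2 and mutant 3. Control 2 and mutant 1 were near 0 for Xist, and mutant 1 was also the lowest mutant for Hs6st2 but not for Gpc3. The part of sex in these 3 genes was not tested. Gm14581 overlaps Hs6st2 on the same strand and A630012P03Rik overlaps Gpc3 on the opposite strand, so reads there may be shared.

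The syndecans, which span the membrane, did not pass: Sdc1 stood at 283 in controls and 333 in mutants, Sdc2 at 120 and 120, Sdc3 at 505 and 438, and Sdc4 at 75.3 and 83.6. Of the basement membrane proteoglycans, Agrn stood at 507 and 508 and Hspg2, perlecan, at 616 and 569. Hspg2, singled out after its values were seen, read 573 to 653 in controls but 406, 812, 544 and 516 in mutants.

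The mutant libraries differed among themselves over the list, here described with Extl1 included. Mutant 2 was the highest mutant for 21 of 47 members (44.7%, against 26.5% of all genes), and mutant 1 and mutant 3 were each the lowest for 15 (31.9%, against 25.8% and 29.5%). Mutant 1 was lowest and mutant 2 highest for 9 members, or 8 of 46 without Extl1 (12.6% of all genes), namely Extl1, Extl3, Ndst1, Glce, Sulf2, Chpf2, Gpc6, Sdc1 and Hspg2. The median SD over members on the log2 scale was 0.10 in controls and 0.15 in mutants, beside 0.11 and 0.18 over all genes.

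Genes of the same pathways outside the list were read for context, as 61 genes in 4 lists of which 58 were in the table and 53 were tested; 2 passed higher and 1 lower (1.56% and 0.512% of all genes). Of 12 other proteoglycan cores tested, Acan and Bcan rose. Acan, aggrecan, the main cartilage proteoglycan and one of the cartilage markers above, read 2.94, 2.17, 2.01 and 3.58 in controls and 6.35, 16.9, 9.97 and 13.5 in mutants, with a log2 fold change of 1.73 (SE 0.26) and a limma adjusted p of 0.0101. Bcan, brevican, a proteoglycan known from brain matrix, read 6.38, 5.99, 5.28 and 5.25 in controls and 8.97, 10.9, 9.66 and 9.23 in mutants, with a log2 fold change of 0.67 (SE 0.10) and a limma adjusted p of 0.00956. Acan, like Extl1, was lowest in the first mutant library and highest in the second, whereas Bcan was much tighter. The groups did not overlap for either gene, and the lowest log2 fold change among the 12 tested genes was that of Col18a1, at a mean of 212 in controls and 170 in mutants, which did not pass. Neither Acan nor Bcan passed without the 3 libraries highest in Amelx (adjusted p 0.263 and 0.292 in the 5 libraries left), where their log2 fold changes were 1.81 and 0.57. Spock3, under the filter and singled out after its values were seen, read 0.903, 1.43, 1.43 and 1.39 in controls and 0.379, 0.622, 0.637 and 0.684 in mutants, without overlap, and its limma adjusted p was 0.0387 when no filter was applied.

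Of 19 breakdown genes, 1 passed (2.07% of all genes). Tmem2, a cell surface hyaluronidase, read 66.2, 76.9, 71.2 and 68.9 in controls and 54.7, 55.9, 55.8 and 55.2 in mutants, and fell by 0.35 on the log2 scale (SE 0.06, limma adjusted p 0.0250). The call was lost in 7 of 19 other settings, among them leaving out control 2, control 3, control 4, mutant 2 or mutant 4 (adjusted p 0.0677 to 0.117). Arsb, a lysosomal sulfatase, stood at 98.0 and 71.3, and Notum, a secreted enzyme that acts on Wnt proteins, at 75.8 and 114, without passing. None of 9 further enzymes of linkage, polymer and chain sulfation passed. The 3-O sulfotransferases Hs3st5 (1.69 and 1.11) and Hs3st6 (0.882 and 1.44, in control and mutant) had the largest fall and rise among them. None of 13 genes of sugar and sulfate supply passed either (Papss2, which makes the sulfate donor, at 76.6 and 68.8, and Slc35d1, a nucleotide sugar transporter, at 21.1 and 29.6).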

How the data were processed

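RNA of molars from 3-day-old mice was sequenced in 8 libraries, 4 per group, grouped by the labels. The methods give 4 samples per group but single-end reads of 75 cycles for 3 pairs of samples, aligned with TopHat 2.0.8 to mm10 and normalised as RPKM, whereas the submitters' processing notes name CASAVA 1.8.2, STAR 2.5.3a and Partek with mm10, so the pipeline behind the table is uncertain, and the table holds 4 libraries per group. The authors deposited a normalised signal per gene, called a normalised count, with equal 75th percentiles across libraries, and an offset of about 1 read. The value of 1 read was taken as the smallest value of a library; 58.9% to 64.4% of low values lay within 0.02 of a whole multiple of it, so read numbers are estimates, and count models were not used. RPKM would give each gene a step of its own, but 26 to 125 genes per library shared the step of 1 read although their gene spans ran from 0.625 to 1.73 kb at the 10th percentile to 43.2 to 129 kb at the 90th, so the values were taken to hold no length factor and were divided by exon length for levels per kilobase. If they were RPKM, those levels would be divided by length once too often.

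The 14854 genes that reached a value of 1 in 4 or more libraries were tested with limma 3.58.1 in R 4.3.3 on log2(value + 1) with a mean-dependent prior variance and Benjamini-Hochberg adjustment over all of them at 0.05. Single genes also had an exact two-sided permutation test over libraries. The steps were tested on simulated data. Gene models and exon lengths came from GENCODE on GRCm38, and promoter windows from RefSeq on GRCm38.p6. The members and the pathway and marker lists were chosen with earlier results of these data known. Every library's value is given for the exostosins, the members with an adjusted p under 0.05 and the 6 other members with the largest log2 fold change; pathway genes are named where they passed or had the largest rise or fall of their list. Alternatives were another filter, pseudocount, scaling, array weights, a replicate block, an enamel covariate and each library left out.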

Additional observations from a re-analysis of the deposited data

Results flagged for a closer look

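In 3 of 106 groups of 4 libraries, 1 library stood apart from the other 3 by Dixon's criterion, where chance gives about 5.3. Glce read 110.8 in control 1 against 97.9 to 99.999 in the other controls. Chst11 read 111.4 in mutant 3 against 124.5 to 125.8 in the other mutants. Ezh2 read 54.95 in control 1 against 38.3 to 39.6 in the other controls.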

How the results depend on the processing

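The number of members called higher in mutants was 2, Hs6st2 and Extl1. Extl1 was chosen on these values, and without it the number was 1 of 46. Every count of higher members above 0 in the rest of this section includes Extl1. The number was 0 with a filter at a value of 10, which removed Extl1. It was 1, Extl1 alone, with median-of-ratios size factors, with quantile normalization and with the enamel level as a covariate, so no other member was called there. Array weights gave mutant 4 a weight of 9.66 and called 12 members higher, beside 14.6% of all genes called higher and 12.6% lower. Shares of all genes are given only for that setting and for the main fit (1.56% higher). The number was 0 without the 3 libraries highest in Amelx, a setting chosen after seeing the data that leaves 5 libraries. With 1 library left out in turn it was 1 to 3. The number called lower was 0, and it was 7 with array weights and 0 to 1 with 1 library left out, when Has3 passed without control 1 or without mutant 1. The fit with a replicate block called 1 member higher, Extl1 alone, but the replicate numbers do not show a pairing: the correlations of same-numbered libraries were −0.34, −0.08, 0.22 and −0.43. Chst1 reversed from −0.74 to 0.21 with the enamel covariate. The adjusted p of Hs6st2 ranged from 0.000154 to 0.521 over 19 settings. Of the single-gene results, 230 kept direction and side of the threshold, 22 lost the call and 10 gained it. Bcan and Tmem2 did not pass with the replicate block (adjusted p 0.0794 and 0.163), with the same fold changes (0.67 and −0.35). The log2 ratio of Extl1 moved by less than the spread between libraries in all settings tried. Causes of these shifts were not tested, and genes under about 1 unit rest on few reads.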
